A study of Mus musculus with 8 samples.

Results

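The comparison described here set RNA precipitated with an antibody against GFP beside RNA from a mock precipitation with normal mouse IgG, in testis lysates that held a tagged form of the RNA-binding protein Dazl. All 17593 genes that passed a filter on dim signals entered it, of 27947 genes on the array, and 4 of the 8 arrays of the study carry it: 2 with GFP and 2 with IgG. Genes were not chosen by their values. Both groups came from testes of male mice of strain C57BL/6 129SV mixed at postnatal day 14, and the labels describe the cells of both as juvenile germ cells expressing Dazl-GFP-V5, so the mock carries the fusion too and only the antibody differs by label. The GFP antibody is Abcam ab6556 and the mock IgG is Santa Cruz sc2025. The remaining arrays are 2 of input total RNA and 2 of a precipitate with an Invitrogen antibody against the V5 tag. Lysates were not crosslinked with UV. The promoter that drives the fusion, the number of animals behind a sample and the preparation of the cells are not given in the sources used here.

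Dazl is a cytoplasmic protein of germ cells. It binds U-rich sites in the 3' untranslated regions of messenger RNAs, interacts with poly(A)-binding proteins and promotes translation or stability of its targets, and spermatogenesis fails without it. A precipitate from a native lysate holds RNA bound by the tagged protein, RNA held by its partners and RNA that sticks to antibody or beads. The mock precipitate measures what sticks to normal mouse IgG and beads, and not what sticks to the GFP antibody itself. At postnatal day 14 the testis holds spermatogonia and spermatocytes in meiotic prophase beside Sertoli, Leydig, peritubular myoid and other somatic cells.

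Each level below is the log2 processed signal of a gene's probe minus the 75th percentile of the same array. A difference is the mean of the 2 GFP arrays minus the mean of the 2 IgG arrays on that log2 scale, given ± SE from a limma fit over all 8 arrays with n = 2 arrays per group. A gene was called higher or lower at an adjusted p (Benjamini-Hochberg over all genes) under 0.05, and the verbs rose and fell are used of called genes only. Probes differ in how brightly they read a transcript, so a level says how bright a probe was and not how abundant one transcript was against another.

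Of the 43379 non-control spots of an array, 57.2% to 62.2% were well above background and 0 saturated. The median absolute log2 difference between the 2 replicates was 0.085 for GFP and 0.159 for IgG. An exact permutation test of 2 arrays against 2 cannot go below p = 0.333, so calls rest on the spread that limma pools over all groups, and whether replicates come from different animals is not stated, so the p-values measure a spread that may be technical. The input and IgG arrays lay on 1 slide and the V5 and GFP arrays on another, so the slide and the antibody cannot be told apart in any difference of GFP from IgG. GFP and V5 share a slide. In the series text the second antibody is anti-PABP1, whereas the sample labels give GFP, which was used here. Input replicate 2 and V5 replicate 1 have descriptions that conflict with their titles. Of the markers of somatic cell types that passed the filter on dim signals, all were above background on both input arrays, which the filter favours. Those that passed were 30 of 30 listed Sertoli, 16 of 16 myoid and 17 of 17 endothelial markers. Of the listed leukocyte, Leydig and erythroid markers 22 of 23, 13 of 15 and 5 of 13 passed. The RNA was thus not of germ cells alone.

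The GFP precipitate differed from the mock in most transcripts, mostly by small amounts. With GFP 3805 genes rose (21.6% of those tested) and 9168 fell (52.1%), with a median difference of -0.33 over all genes. At least 2-fold, 1197 genes rose (6.80%) and 1177 fell (6.69%), and these numbers were even under this scaling only. They were 2076 and 622 with median scaling, 1449 and 617 with quantile scaling, 2726 and 415 with spike-in scaling and 2089 and 603 with no scaling. The balance of all calls moved with the scaling of the arrays. Higher genes made up 29.3% of the calls with the 75th percentile, 52.5% with the median, 36.0% with quantile scaling, 53.0% with no scaling and 76.0% with the spike-in RNA, which shifts the median of all genes to 0.15. Whether most transcripts were a little lower or a little higher with GFP therefore depends on the scaling. Each of the 1197 strongly raised genes stayed called higher under those 4 other scalings. All 4 raise the median difference (-0.03, -0.21, 0.15 and -0.03), so such genes could hardly lose their call there. Of the 1177 strongly lowered genes, 1076 stayed called lower with the median, 1051 with quantile, 913 with spike-in and 1069 with no scaling. Of the genes named below as lower, Dnah8, Med25, Msi1, Pabpc1, Pfdn6, Pkmyt1, Prpf31, Rbm10, Rbm19, Ring1, Rnf148, Ssr4, Taf1c, Taf6l, Tex101 and Ybx2 were not called with spike-in scaling.

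**Figure D1:**
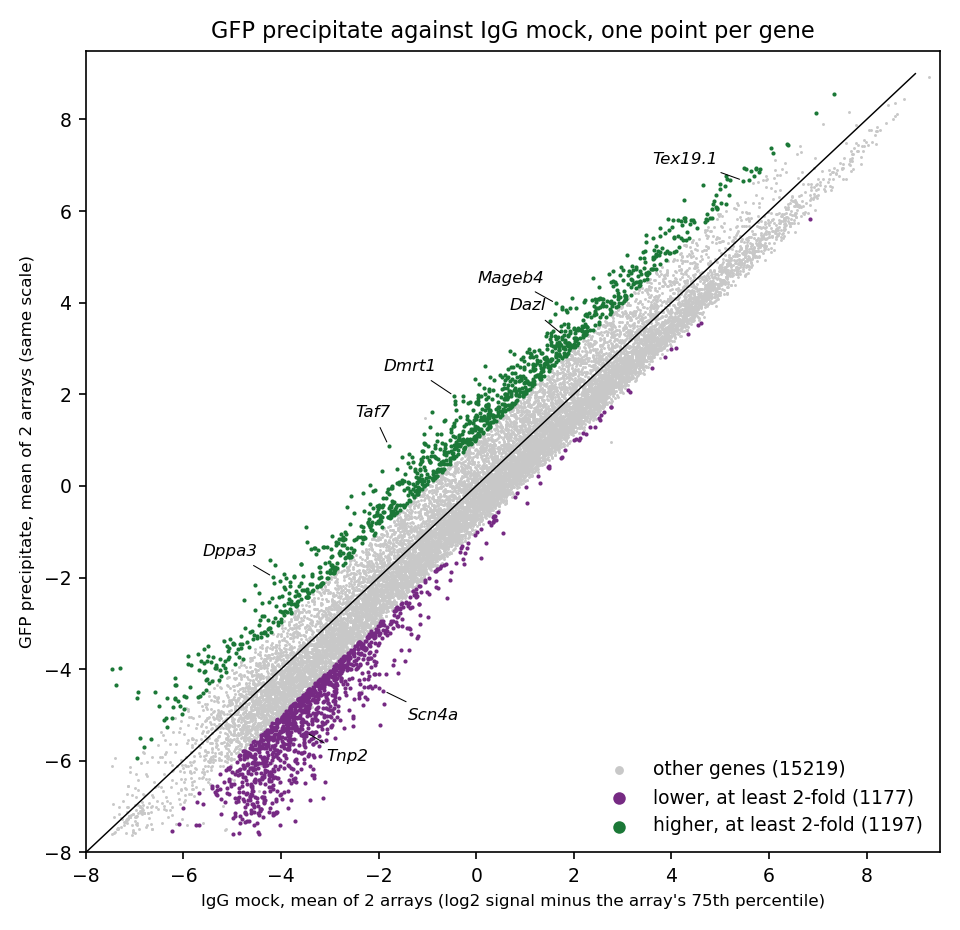
Each of the 17593 points is a gene, placed by its mean log2 level on the 2 IgG arrays and on the 2 GFP arrays, with the line of equal level. The 1197 genes raised at least 2-fold run along the whole range of levels, while most of the 1177 genes lowered at least 2-fold lie at the dim end.

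Both kinds of change sat at different levels. Genes raised at least 2-fold had a median level of 0.57 in input RNA, -0.003 on the IgG arrays and 1.39 on the GFP arrays, and 1108 of the 1197 lay well above background on all 4 arrays. Genes lowered at least 2-fold had median levels of -3.83, -3.50 and -4.99, and 484 of the 1177 lay above background on all 4. With genes in 5 groups of equal size by input level, the share lowered at least 2-fold ran from 22.5% in the dimmest group over 8.93% and 1.36% to 0.398% and 0.256% in the brightest. The share raised at least 2-fold ran from 4.06% over 5.29%, 7.67% and 9.07% to 7.93%. Strong gains were thus spread over bright and dim probes, and strong losses were concentrated in dim ones.

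**Figure D2:**
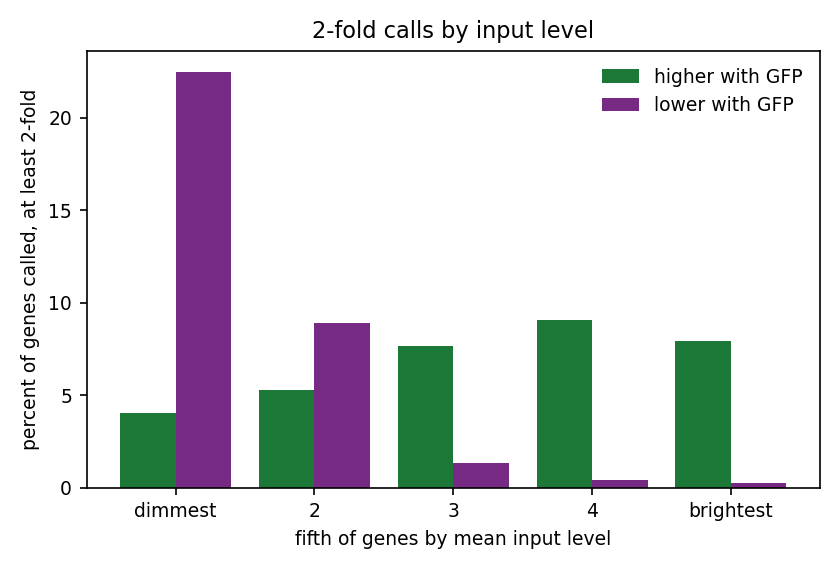
Bars give the percent of genes called and changed at least 2-fold, for 5 groups of about 3519 genes ordered by mean input level. The lower calls fall from 22.5% to 0.256% towards the bright end, and the higher calls stay between 4.06% and 9.07%.

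Control signals near background did not move alike. The 7 spike-in probes above background on all arrays differed between GFP and IgG by -0.05 to -0.30 in log2 signal. Of the 3 fainter ones, E1A_r60_3 read 3.94 and 4.02 on the IgG arrays and 4.05 and 4.04 in input, against 2.91 and 3.08 with GFP and 2.82 and 2.99 with V5, and so parted by slide. E1A_r60_a104 overlapped between IgG (3.07 and 3.66) and GFP (2.94 and 3.17). E1A_r60_a107 was higher with IgG (5.94 and 5.90) than with GFP (5.65 and 5.74) and lowest in input (5.37 and 4.99), which does not follow the slide. The median processed signal of the 153 negative control spots overlapped as well, at 6.84 and 6.11 with IgG and 6.45 and 7.92 with GFP. With normexp background correction 41 genes were lowered and 706 raised at least 2-fold, and of the 1177 lower genes 60 were still called lower while 943 of the 1197 higher genes were still called higher. The part of the slide and of faint signals in the lower calls was not tested.

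Of the 20 highest genes, 16 were above input as well as above the mock. Taf7, a subunit of the general transcription factor TFIID, read -1.59 and -2.01 on the IgG arrays and 0.96 and 0.80 on the GFP arrays. It rose 6.38-fold (2.67 ± 0.14, adjusted p = 8.26e-05), yet its mean input level of 1.12 was above both. Nxt2, a cofactor of messenger RNA export, read -4.01 and -4.43 with IgG and -1.56 and -1.68 with GFP (2.60 ± 0.15). Its input mean of -1.25 was also above the GFP arrays, so these 2 genes were far under-represented in the mock. Ube2v2 and Tcea1 likewise stayed below input.

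Others exceeded input by a wide margin. Dck, deoxycytidine kinase of the nucleoside salvage pathway, read 0.24 and 0.13 with IgG and 2.62 on each GFP array, with an input mean of -0.005 (2.44 ± 0.09, adjusted p = 7.46e-05). Dmrt1, a transcription factor that controls the entry of spermatogonia into meiosis, read -0.39 and -0.50 with IgG and 1.97 and 1.95 with GFP, with an input mean of 0.35 (2.41 ± 0.08). Dlx1, a homeobox factor, read -2.24 and -2.41 with IgG and -0.16 and -0.14 with GFP, with an input mean of -2.73 (2.17 ± 0.09). In these genes both GFP arrays lay above both input arrays as well.

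Among the rest of the 20 were Hccs (2.52 ± 0.11), which attaches haem to cytochrome c, and Cetn2 (2.35 ± 0.09), a centrin of centrioles. Mageb4, an X-linked gene of the melanoma antigen family, read 1.67 and 1.61 with IgG and 4.04 and 3.93 with GFP (2.34 ± 0.10). Spc25, of the Ndc80 complex of the kinetochore, read -0.36 and -0.50 with IgG and 1.94 and 1.79 with GFP (2.29 ± 0.08). Dppa3, a maternal-effect and germ cell factor also called Stella, read -4.05 and -4.27 with IgG and -1.97 and -2.01 with GFP (2.17 ± 0.09). Eef1e1, of the multi-synthetase complex, read 2.44 and 2.32 with IgG and 4.63 and 4.45 with GFP (2.16 ± 0.11). That the groups did not overlap was part of the rule that chose the 20 genes. The list was completed by Ube2v2, Taf9b, Ppil5, Vbp1, C1d, Nupl1, Adi1, Tcea1 and Ttc33, at differences from 2.19 to 2.34. For Ube2v2, 1 of 3 probes had the opposite sign (-0.23), and for C1d the lower of 2 probes gave 0.83.

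**Figure D3:**
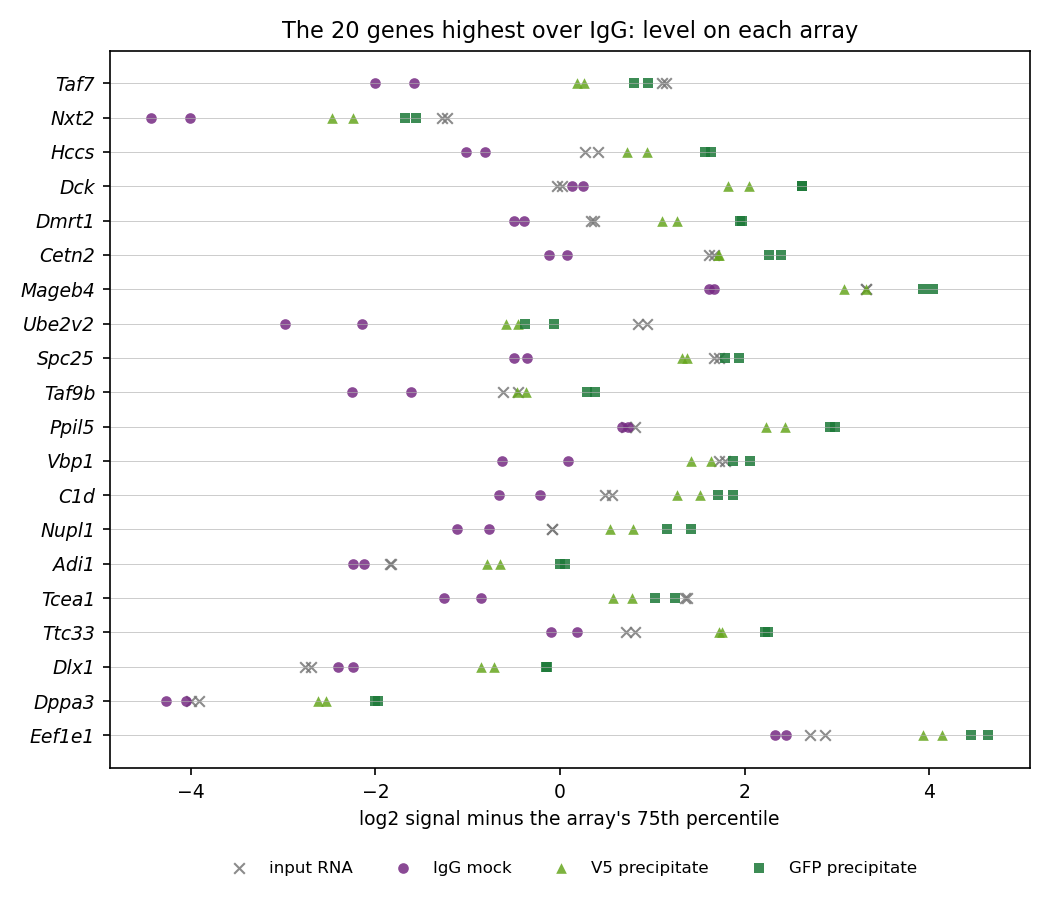
For the 20 genes with the largest GFP minus IgG difference among those well above background on all 4 arrays, each mark is the log2 level on 1 array. The 2 GFP squares stand to the right of both IgG circles by the rule that chose the genes. They stand to the right of the input crosses for all but Taf7, Nxt2, Ube2v2 and Tcea1.

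Over the whole set, 995 of the 1197 genes raised at least 2-fold (83.1%) had a GFP mean above the input mean, against 8359 of all 17593 genes (47.5%). The set was chosen on the same GFP arrays, which raises this share by itself, so it is given as a description. Input lies on the slide of the IgG arrays, so this set of values carries the same slide difference. The V5 precipitate shares its IgG control with GFP, and its values are given only side by side. In the genes raised at least 2-fold with GFP the median V5 minus IgG difference was 0.88 and the median GFP minus V5 difference 0.44. In the V5 precipitate Taf7 differed from IgG by 2.02, Dck by 1.74 and Dmrt1 by 1.63.

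A further 119 genes were well above background on both GFP arrays and on no IgG array. For these the fold is a lower bound: an IgG array below the lowest spot well above background on it (log2 levels of -5.11 and -5.18) was set to that level. Of the 8 with the largest bounds, Zic1, a zinc finger factor of neural development, read -5.16 and -4.92 with IgG and -3.45 and -3.25 with GFP and was at least 3.18-fold higher (adjusted p = 0.000104). Sox30, a transcription factor of male germ cells, read -5.01 and -4.63 with IgG and -3.33 and -3.23 with GFP and was at least 2.91-fold higher (adjusted p = 0.000294). Both GFP arrays lay above both IgG arrays in these genes, which their choice by detection nearly fixes. That choice favours a small adjusted p as well, and the fit used IgG readings that were not well above background. Speer4f1, Rufy3, Lrif1, Fam122b and Elapor2 had bounds of 3.14, 2.99, 2.91, 2.80 and 2.70, and the 3 probes of Elapor2 ranged down to 0.23 on the log2 scale. Pawr had the largest bound, 3.21, but its fitted difference missed the threshold (adjusted p = 0.0514).

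Transcripts known from earlier studies as Dazl-bound were mostly raised. Of 11 such genes, all measured, 8 rose, 0 fell and 3 were not called, against 21.6% raised and 52.1% lowered of all genes. Their median difference was 0.62 against -0.33 over all genes. With normexp correction 5 rose and 0 fell, with a median of 0.52 against -0.17 over all genes. Dazl itself read 2.01 and 1.58 with IgG and 3.38 and 3.19 with GFP (1.49 ± 0.15, adjusted p = 0.000369). Whether its probe also reads the transcript of the fusion is not given in the sources used here. Sycp3, a lateral element protein of the synaptonemal complex, read -2.51 and -3.13 with IgG and -1.01 and -1.32 with GFP (1.66 ± 0.20, adjusted p = 0.00063). Tex19.1, a germ cell protein that restrains retrotransposons, read 5.45 and 5.50 with IgG and 6.76 and 6.57 with GFP (1.19 ± 0.09).

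These genes differed in how they stood to input. Tex19.1 had an input mean of 4.13, below both precipitates. Sycp3 had an input mean of 2.11 and Dazl of 3.87, above both. Sdad1 (1.35 ± 0.09; 1 of 2 probes opposite in sign) and Tbpl1, a germ cell homologue of the TATA-binding protein (1.13 ± 0.09), exceeded input with GFP. Grsf1, an RNA-binding protein of mitochondrial granules (0.62 ± 0.09), and Ddx4, the germ cell helicase Vasa (0.45 ± 0.15, adjusted p = 0.0355), stayed below it. The call of Ddx4 ended without either GFP array (0.39 and 0.51) or without IgG replicate 2 (0.20), and without IgG replicate 1 its difference was 0.69.

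The cell cycle phosphatase genes parted. Cdc25a read -0.17 and -0.06 with IgG and 0.28 and 0.26 with GFP (0.38 ± 0.08, adjusted p = 0.00395), and Cdc25c, whose GFP and IgG arrays overlapped, was not called (-0.07 ± 0.09). Pam (0.24 ± 0.12; called at 0.40 without IgG replicate 2) and Crisp2 (0.04 ± 0.19; -0.19 to 0.27 as single arrays were left out) were not called. Against the V5 precipitate on the same slide, where 7.16% of all genes were higher with GFP and 6.77% lower, Sdad1 (0.51 ± 0.09, adjusted p = 0.0309), Tex19.1 (0.43 ± 0.09, adjusted p = 0.034) and Cdc25a (0.44 ± 0.08, adjusted p = 0.0291) were higher with GFP. Dazl differed by 0.51 ± 0.15 (adjusted p = 0.0638), and the other 7 were not called either.

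**Figure D4:**
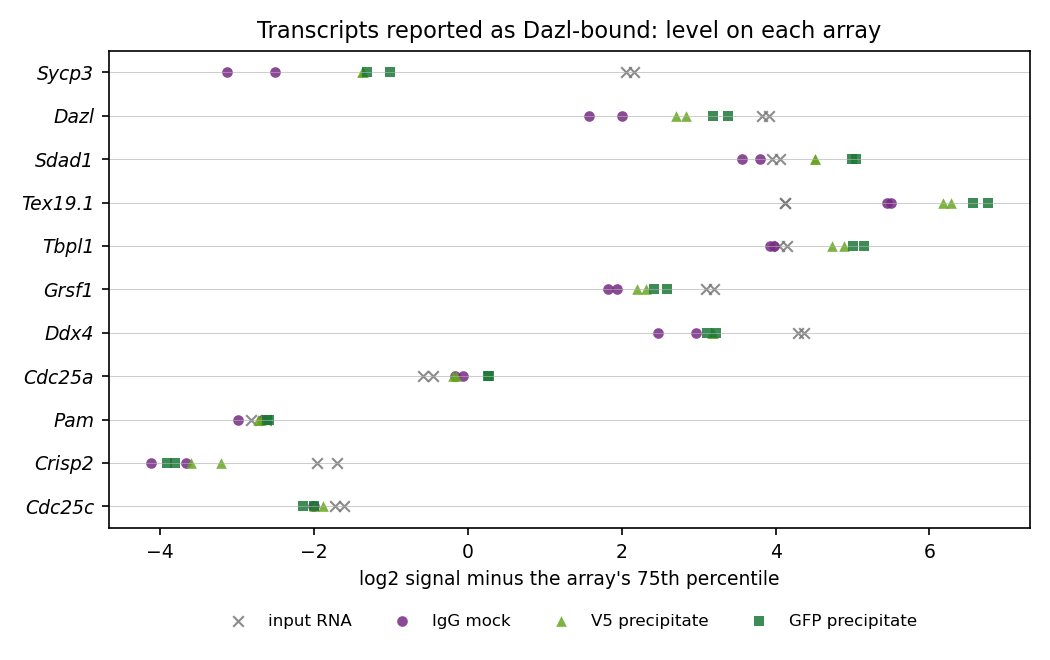
For the 11 transcripts reported as Dazl-bound, each mark is the log2 level on 1 array. The GFP squares lie to the right of the IgG circles in the upper 8 genes, and in Sycp3, Dazl, Grsf1 and Ddx4 the input crosses lie further right still.

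Genes of differentiating spermatogonia had the highest median of the 72 lists examined. Every list below stands against 21.6% raised and 52.1% lowered over all genes. Of 9 measured genes of differentiating spermatogonia (11 listed) 8 rose and 0 fell, with a median of 1.17. With normexp correction 7 rose and 0 fell (median 1.09). The receptor tyrosine kinase Kit read 1.05 and 1.15 with IgG and 2.95 and 2.84 with GFP (1.79 ± 0.08, adjusted p = 7.46e-05). Stra8, which retinoic acid induces at the start of meiosis, read 5.18 and 5.17 with IgG and 6.44 and 6.26 with GFP (1.17 ± 0.08). Cyclin D1, Ccnd1 (1.61 ± 0.11), the DNA methyltransferase Dnmt3b (1.24 ± 0.07) and the transcription factors Dmrtb1 (1.11 ± 0.10) and Sohlh2 (0.84 ± 0.07) also rose. Rarg, a retinoic acid receptor, was not called (0.19 ± 0.14), but was under the 4 other scalings (0.39 to 0.66).

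Undifferentiated spermatogonia gave a mixed list, with 11 of 20 measured genes raised and 6 lowered (median 0.52). With normexp correction 5 were raised and 0 lowered (median 0.25). Sox3 (1.90 ± 0.21), the let-7 regulator Lin28a (1.78 ± 0.08) and Foxo1 (1.33 ± 0.07) rose. Nanos2, a translational repressor that keeps spermatogonial stem cells, rose from -5.44 and -5.09 with IgG, not well above background, to -4.17 and -4.40 with GFP, at least 1.76-fold. Its paralogue Nanos3 fell from -2.41 and -2.21 to -3.07 and -3.13 (-0.79 ± 0.09), and Utf1, a chromatin factor, also fell (-0.80 ± 0.09).

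The pluripotency list split the same way, with 10 of 24 genes raised and 6 lowered (median 0.04). Klf5 (1.73 ± 0.10), Mycn (1.27 ± 0.07), Tfap2c (1.24 ± 0.10) and Dppa4 (1.11 ± 0.13) rose beside Dppa3, while Dppa2 fell (-0.95 ± 0.12). Dppa2 and Dppa4 encode partners in 1 complex.

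Meiotic genes moved in both directions. Of 12 measured genes of the synaptonemal complex 6 rose and 4 fell (median 0.15), and with spike-in scaling 6 rose and 1 fell. Tex12, a central element protein, read 3.01 and 2.44 with IgG and 4.70 and 4.57 with GFP (1.91 ± 0.18). Syce2, its binding partner in the central element, rose as well (1.22 ± 0.08). Rec8, the meiotic cohesin subunit, read 4.37 and 4.57 with IgG and 3.60 and 3.66 with GFP and fell (-0.84 ± 0.08). Sycp1 was not called (-0.32 ± 0.19), but fell by 0.61 when IgG replicate 2 was left out. Of 16 meiotic recombination genes 5 rose and 7 fell (median -0.10), and with spike-in scaling 9 rose and 1 fell. Both medians lay above that of all genes (-0.33), of which 21.6% rose and 52.1% fell.

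The Mage family, most of it X-linked and active in germ cells, had 10 of 16 measured genes raised and 3 lowered (median 0.82). With normexp correction 6 were raised and 1 lowered, and the median fell to 0.28. Of the Magea genes, Magea1 (1.04 ± 0.09), Magea6 (0.96 ± 0.10), Magea8 (0.90 ± 0.09), Magea3 (0.88 ± 0.09) and Magea5 (0.84 ± 0.07) rose. These genes are near-identical copies, so their probes may read each other's transcripts. Maged2, which is expressed broadly in the body, fell (-0.83 ± 0.07), and the faint Magea9, not well above background with GFP, was at least 2.06-fold lower.

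Of 52 measured RNA-binding regulators of stability and translation 38 rose and 5 fell (median 0.69), against 21.6% and 52.1% of all genes. With normexp correction 23 rose and 0 fell (median 0.57). Not every RNA-binding family was mostly raised: of 51 DEAD and DEAH box helicase genes 14 rose and 27 fell (median -0.25). Elavl2, a neuronal and germ cell member of the Hu family that binds AU-rich elements, read 2.07 and 1.84 with IgG and 4.18 and 4.00 with GFP (2.13 ± 0.12, adjusted p = 8.6e-05). Its ubiquitous relative Elavl1 rose by 1.57 ± 0.09. Fmr1, the fragile X protein, read -0.33 and -1.28 with IgG and 1.04 and 0.91 with GFP (1.78 ± 0.28).

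The cytoplasmic polyadenylation factors Cpeb2 (1.65 ± 0.25), Cpeb4 (1.45 ± 0.23) and Cpeb1 (1.24 ± 0.07) rose together with Stau2, which carries double-stranded RNA (1.73 ± 0.11), and Celf1 (1.34 ± 0.07). Ybx2, a germ cell Y-box protein that stores messenger RNA (-0.68 ± 0.09), and Msi1, a Musashi protein (-0.77 ± 0.15), fell.

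Splicing regulators moved in the same direction. Of 64 genes with names in Hnrnp, Srsf or Rbm 47 rose and 7 fell (median 0.70). With normexp correction 29 rose and 1 fell (median 0.56). Rbmx2 read -1.29 and -1.49 with IgG and 0.71 and 0.69 with GFP (2.09 ± 0.10). The SR proteins Srsf1 (1.65 ± 0.12), Srsf2 (1.58 ± 0.08), Srsf3 (1.43 ± 0.18) and Srsf7 (1.33 ± 0.09) rose, as did the male germ cell genes Rbmy (1.53 ± 0.11), on the Y chromosome, and its autosomal retrogene relative Rbmxl2 (1.51 ± 0.08). Rbm19 (-0.64 ± 0.09) and Rbm10 (-0.56 ± 0.08) fell. The core snRNP, Lsm and Prpf genes were divided, with 25 of 50 raised and 16 lowered (median 0.25): Lsm3 rose (1.89 ± 0.10) and Prpf31 fell (-0.65 ± 0.08).

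Genes of the poly(A) tail, where Dazl has partners, rose and fell in like number. Of 62 genes of tail binding, 3' end processing, deadenylation and decay 20 rose and 19 fell (median -0.03, above the -0.33 of all genes), and with spike-in scaling 38 rose and 3 fell (median 0.44). Pabpc1, the main cytoplasmic poly(A)-binding protein, read 6.71 and 6.41 with IgG and 6.22 and 6.18 with GFP, a difference of -0.36 ± 0.12 (adjusted p = 0.034) that turned to 0.12 with spike-in scaling. Its call also ended under the other scalings, with the replicate block, and when GFP replicate 1, GFP replicate 2 or IgG replicate 1 was left out (-0.38, -0.33 and -0.21). The testis-specific Pabpc2 fell (-0.76 ± 0.07). The inhibitors of poly(A)-binding protein Paip2b (1.64 ± 0.07) and Paip2 (1.34 ± 0.10) rose, as did Pabpn1, the nuclear poly(A)-binding protein (0.83 ± 0.08). Within 3' end processing Nudt21 (1.55 ± 0.10) and Cstf2t (1.51 ± 0.07) rose and Cpsf1 fell (-0.88 ± 0.09).

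Within several protein complexes, subunit transcripts parted in both directions under the 75th-percentile scaling. So did the Taf genes, which were listed by symbol and not as a single complex. With spike-in scaling the lower calls went from 7 to 0 for Taf genes and from 6 to 0 for chaperonin and prefoldin genes. They went from 8 to 1 for Mediator, from 6 to 1 for the translocon and from 11 to 0 for Polycomb genes. Genes called higher with that scaling were, in this order, 16 of 23, 9 of 15, 22 of 29, 16 of 25 and 24 of 37. Most of the others were not called. Among 23 Taf genes 10 rose and 7 fell (median 0.22). Taf7, Taf9b (2.27 ± 0.20), Taf9 (1.89 ± 0.12) and the germ cell paralogue Taf7l (1.60 ± 0.09) rose. Taf6l (-0.71 ± 0.10) and Taf1c (-0.64 ± 0.08) fell. The raised set thus held the paralogues Taf7 and Taf7l and the paralogues Taf9 and Taf9b.

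Among 15 chaperonin and prefoldin genes, which fold actin and tubulin, 7 rose and 6 fell. The prefoldin subunit genes Vbp1 (2.23 ± 0.22), Pfdn2 (1.79 ± 0.06) and Pfdn4 (1.34 ± 0.14) rose and Pfdn6 fell (-0.66 ± 0.10). Cct2 (0.87 ± 0.07) and Cct8 (0.73 ± 0.07), of the chaperonin, rose. Pfdn2 was the steadiest of these, at 3.61 and 3.65 with IgG and 5.42 on both GFP arrays.

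Mediator, the coactivator of RNA polymerase II, had 17 of 29 genes raised and 8 lowered (median 0.40), with Med30 (1.48 ± 0.14) and Med19 (1.45 ± 0.08) at the upper end and Med16 (-0.75 ± 0.08) and Med25 (-0.67 ± 0.09) at the lower. The signal sequence machinery of the endoplasmic reticulum had 15 of 25 raised and 6 lowered (median 0.31). In its translocon-associated complex Ssr1 (1.67 ± 0.08) and Ssr3 (1.11 ± 0.10) rose, and Ssr2 (-0.82 ± 0.10) and Ssr4 (-0.65 ± 0.07) fell.

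Ubiquitin-conjugating enzymes were raised in 19 of 32 genes and lowered in 6 (median 0.63). Ube2n, which builds K63-linked chains with Ube2v2, read 0.73 and 0.46 with IgG and 2.31 and 2.33 with GFP (1.73 ± 0.11). Ube2b, needed for normal sperm, rose by 1.68 ± 0.10. Proteasome subunits, which act downstream of these enzymes, had 6 of 49 raised and 29 lowered (median -0.31), close to the median of all genes.

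Cell cycle genes had 27 of 49 cyclins, kinases and E2f factors raised and 11 lowered (median 0.38). Ccne2 (2.01 ± 0.24), the small kinase subunits Cks1b (1.65 ± 0.07) and Cks2 (1.65 ± 0.10), Cdk2 (1.58 ± 0.09) and E2f5 (1.57 ± 0.08) rose. Cdk5 (-0.70 ± 0.07) and the inhibitory kinase Pkmyt1 (-0.64 ± 0.07) fell, in contrast to Wee1, a kinase of the same function, which rose (1.38 ± 0.14). In 45 kinetochore and checkpoint genes 14 rose and 15 fell (median 0.03). Cenph (1.64 ± 0.13) and Dsn1 (1.52 ± 0.08) rose beside Spc25, and Cenpb fell (-0.81 ± 0.09). Ndc80, the partner of Spc25, was not well above background on any of the 4 arrays.

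In the apoptosis list 13 of 35 genes rose and 15 fell (median -0.03). Pmaip1, the BH3-only protein Noxa, read -0.22 and -0.31 with IgG and 1.94 and 1.77 with GFP (2.12 ± 0.09). Casp2, an initiator caspase gene (1.37 ± 0.09), rose, as did Trp63 (1.58 ± 0.12), a guardian of germ cells, and Mdm2 (1.20 ± 0.12). Trp53 read 0.05 and 0.30 with IgG and -0.69 and -0.67 with GFP and fell (-0.86 ± 0.10).

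Polycomb genes had 17 of 37 raised and 11 lowered (median 0.10). Paralogues again parted: Rnf2 read 1.41 and 0.98 with IgG and 3.03 and 2.84 with GFP (1.75 ± 0.15), while Ring1, the other E3 ligase of Polycomb repressive complex 1, read 0.26 and 0.42 with IgG and -0.31 and -0.25 with GFP (-0.62 ± 0.10). Suz12 (1.33 ± 0.17) and Aebp2 (1.88 ± 0.21) of complex 2 rose.

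The large housekeeping families of translation and respiration did not join the raised genes. Of 79 ribosomal protein genes 2 rose and 63 fell, with a median of -0.40 that became 0.07 with spike-in scaling. The raised ones were Rpl31 (0.66 ± 0.11) and Rps27l (0.51 ± 0.13), and the call of Rps27l ended without GFP replicate 1 (0.46) and its value was 0.33 without IgG replicate 2. Of 88 oxidative phosphorylation genes 6 rose and 70 fell, with a median of -0.47 that became 0.00 with spike-in scaling. Ndufaf4, an assembly factor of complex I, stood out at 1.35 ± 0.08, from 1.74 and 1.64 with IgG to 3.04 and 3.05 with GFP. Both medians lay below that of all genes, a place that spike-in scaling cannot change, since it shifts every difference by the same amount.

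Translation initiation factors had 13 of 53 raised and 28 lowered (24.5% and 52.8%), close to the shares of all genes (21.6% and 52.1%). Their median of -0.23 turned to 0.24 with spike-in scaling, with 27 raised and 2 lowered. Eif5a2 read 0.00 and -0.27 with IgG and 1.87 and 1.79 with GFP (1.96 ± 0.10). The cap-binding protein Eif4e rose (1.07 ± 0.09), and Eif5b, which joins the ribosomal subunits, read 3.98 and 3.74 with IgG and 2.72 and 2.90 with GFP and fell on all 5 of its probes (-1.05 ± 0.16). Of 18 tRNA synthetase genes 1 rose and 13 fell, with a median of -0.49 (-0.01 with spike-in scaling), and Vars had the lowest value (-0.82 ± 0.09).

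**Figure D5:**
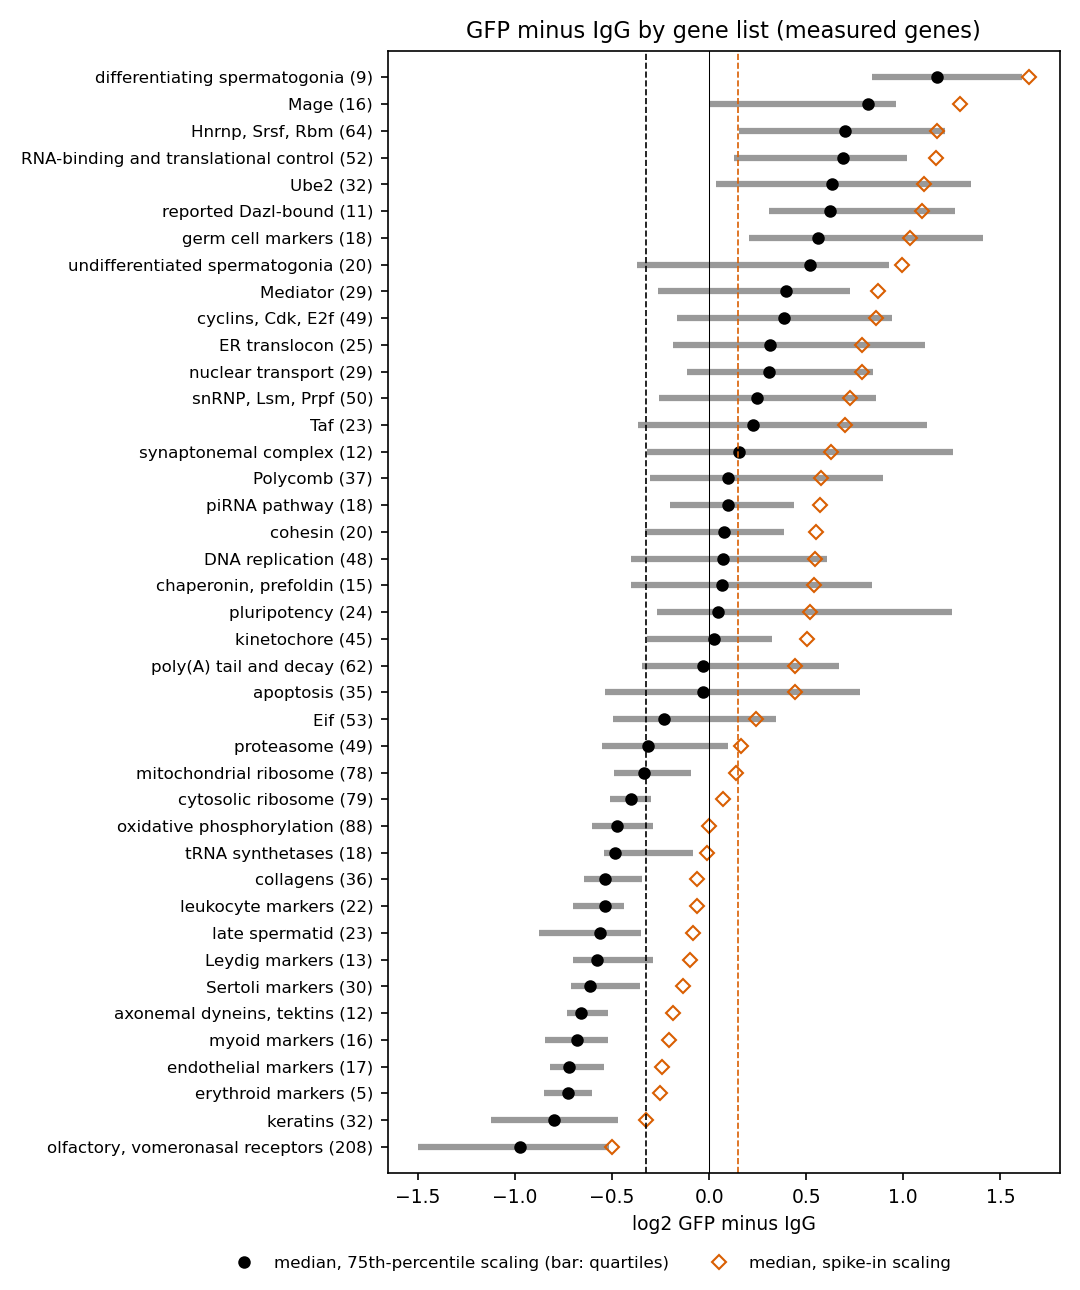
For 41 gene lists, filled circles give the median log2 GFP minus IgG difference with a bar from the lower to the upper quartile, and open diamonds give the median after spike-in scaling. Dashed lines mark the medians of all genes, -0.33 and 0.15. Lists of spermatogonia, Mage genes and RNA-binding proteins lie to the right of the line of each scaling, and marker lists of somatic cells to the left. Spike-in scaling shifts every difference by the same amount, so a list keeps its place against the line.

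Markers of somatic cells of the testis were mostly lower with GFP, against 52.1% of all genes. Of 30 Sertoli markers 1 rose and 26 fell (median -0.61), of 16 myoid markers 0 rose and 13 fell (-0.68), of 13 Leydig markers 0 rose and 9 fell (-0.58), and of 22 leukocyte markers 0 rose and 17 fell (-0.54). Of 17 endothelial markers 1 rose and 16 fell (-0.72), and all 5 measured erythroid markers, of 13 listed, fell (-0.73). Spike-in scaling moved these medians to -0.14, -0.21, -0.10, -0.06, -0.24 and -0.25. That scaling shifts every difference by the same amount, so their place below the median of all genes could not change. Lower calls were fewer there, with 8 of the Sertoli, 7 of the myoid and 1 of the Leydig markers. They numbered 4 of the leukocyte, 5 of the endothelial and 1 of the erythroid markers. Higher with that scaling were 2 of the Sertoli, 2 of the myoid, 2 of the Leydig and 2 of the leukocyte markers. Of the endothelial markers 1 was higher, and of the erythroid markers 0. These are differences between 2 precipitates and do not measure the number of cells of a type in the testis.

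Espn, an actin bundler of Sertoli cell junctions, read 0.59 and 0.76 with IgG and -0.19 and -0.11 with GFP (-0.82 ± 0.08, adjusted p = 0.000378). Cyp17a1, a steroid enzyme of Leydig cells, read 1.06 and 1.16 with IgG and 0.26 and 0.48 with GFP (-0.74 ± 0.09). Acta2, smooth muscle actin of myoid cells, read 4.15 and 4.49 with IgG and 3.35 and 3.46 with GFP (-0.92 ± 0.13). C1qb of macrophages fell by 1.03 ± 0.10. Eng of endothelium read 0.72 and 0.99 with IgG and -0.18 and -0.11 with GFP (adjusted p = 0.000421). These 5 genes were named from the low ends of their lists, which nearly fixed that their groups did not overlap.

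Summed over the list, Sertoli markers stood at 10.2 and 10.3 with IgG and 9.61 and 9.65 with GFP, against 9.98 on the lower of the input arrays. Germ cell markers stood at 8.33 and 8.13 with IgG and 8.27 and 8.21 with GFP, below the 8.43 and 8.44 of the input arrays. Their summed level thus overlapped between IgG and GFP, although 13 of 18 rose and 2 fell (median 0.56). The sum is carried by bright probes, and Tex101, a germ cell surface protein, fell from 7.79 and 7.54 to 7.08 and 7.11 (-0.57 ± 0.10). How far the other lists follow the cell type that expresses their genes was not tested.

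Transcripts of the last phase of spermatogenesis, which are scarce at this age, were lower too. Of 23 late spermatid genes 0 rose and 16 fell (median -0.56). Under spike-in scaling 3 were higher and 4 lower, and under normexp 0 were higher and 1 lower. Tnp2, a transition protein of sperm chromatin, read -3.61 and -3.38 with IgG and -5.37 and -5.38 with GFP, where it was not well above background, and was at least 3.45-fold lower. All 12 measured genes of axonemal dyneins and tektins fell (median -0.66), with 2 lower under spike-in scaling and 4 under normexp. Unlike Tnp2, several of these were well detected: Dnah8 read 4.25 and 4.11 with IgG and 3.50 and 3.57 with GFP (-0.65 ± 0.08).

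The lowest genes were faint. Scn4a, a muscle sodium channel, read -2.01 and -1.80 with IgG and -4.25 and -4.69 with GFP, and it fell 5.90-fold (-2.56 ± 0.15, adjusted p = 9.89e-05). Cd4, a T-cell coreceptor, read -3.46 and -3.32 with IgG and -5.29 and -5.76 with GFP (-2.14 ± 0.16). Slc35g3 (-2.41 ± 0.14), Oog4 (-2.29 ± 0.19), Glt1d1 (-2.26 ± 0.16) and the pancreatic lipase gene Cel (-2.17 ± 0.23) were among the 20, whose differences ran from -2.56 to -1.96. Rnf148, the last of them, differed between its IgG arrays (-1.63 and -4.05). Its difference was -0.75 without the first and -3.17 without the second of these, and its call ended without either GFP array (-1.90 and -2.01).

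Families best known from tissues other than testis were mostly lower, against 52.1% lower of all genes and 53.5% of the dimmest of the 5 input groups. At least 2-fold, 22.5% of that group was lower. A gene passed the filter when both arrays of any 1 group read it well above background. Genes kept through IgG and not GFP are favoured to be called lower, and those kept through GFP alone higher. How many genes of these families were kept in that way was not counted. The receptor genes are dim, with a median input level of -4.29. Of 208 measured olfactory and vomeronasal receptor genes 3 rose and 138 fell, 94 of them at least 2-fold (median -0.98), and 83 of the 208 lay above background on all 4 arrays. With normexp correction their median was -0.22, with 0 raised and 1 lowered. Of 32 keratin genes 2 rose and 25 fell (median -0.80, and -0.30 with 3 lowered under normexp). Collagens, of which 34 of 36 were above background, had 1 raised and 29 lowered (median -0.54, and -0.43 with 6 lowered under normexp). For Sertoli markers, all 30 above background on all 4 arrays, the median under normexp was -0.58 with 9 of 30 lowered.

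A further 468 genes were above background on both IgG arrays and on no GFP array. Their bounds were set in the same way, with GFP levels of at least -5.37 and -5.19. Cd300ld3, a gene of the CD300 family of leukocyte receptors, read -3.12 and -2.85 with IgG and -5.37 and -5.15 with GFP and was at least 4.85-fold lower with GFP. Lalba, a milk protein gene, read -3.00 and -3.29 with IgG and -6.28 and -7.36 with GFP and was at least 4.39-fold lower. The cytokine gene Il24 was at least 4.16-fold lower, and Nr3c2, the mineralocorticoid receptor gene, at least 3.91-fold lower. Olfr1134, Olfr374, Rasgrp4 and Klk10 had bounds of 4.51, 4.11, 3.90 and 3.87. All 8 were called lower. Being detected on both IgG arrays and on no GFP array favours that call and nearly fixes that the groups do not overlap.

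By position, 66 of the 1021 genes raised at least 2-fold with a chromosome assigned were X-linked. Of 502 measured X-linked genes 32.3% rose, 13.1% at least 2-fold, and the median was -0.12. Over the 14237 genes with a chromosome assigned, 22.9% rose, 7.17% at least 2-fold, and the median was -0.31. Of the 20 highest genes 6 are X-linked: Nxt2, Hccs, Cetn2, Mageb4, Taf9b and Vbp1. Other chromosomes came near these shares, with 31.4% raised on chromosome 18 and 29.5% on chromosome 12. No test was made of the chromosomes.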

How the data were processed

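The deposited values used here are intensities, 1 processed signal per spot. Per the file headers, Agilent Feature Extraction 9.1.3.1 made them by background subtraction and detrending, with a surrogate value for each spot that did not exceed background, and arrays were not scaled to each other. The authors' table of means has no IgG condition and was not used here. From the intensities log2 was taken and the 75th percentile of an array's non-control spots subtracted. Outlier spots were dropped and repeat spots averaged. A probe was kept if both arrays of any 1 group read at least 1 of its spots well above background (25621 of 41174), and the brightest probe stood for its gene. Of the 5944 genes with more than 1 kept probe, 4473 had all probes of the same sign. Accessions of 22951 probes matched RefSeq (GRCm38.p6), used for symbols and chromosomes. Other names are those of the array design.

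Means of 4 groups of 2 arrays were fitted by lmFit and eBayes (limma 3.58.1, run in R 4.3.3; 4 residual and 2.41 prior degrees of freedom), two-sided, and every p in the text comes from it. The number of arrays limits the precision. The procedure was tested on simulated data. Members and the 72 lists (30 by gene names, 42 by symbol patterns) were chosen with earlier results of these data known; lists were described by counts and medians, with no test. Named genes are the 20 highest and 20 lowest well above background, up to 8 each way with a bound, Dazl, Pabpc1, the reported Dazl-bound transcripts and members of each list near its ends, of which a part is printed; some list members nearer the middle were chosen after their values were seen. A result on 1 gene is not reported here.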

Additional observations from a re-analysis of the deposited data

How the results depend on the processing

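Counts of genes higher, lower, higher at least 2-fold and lower at least 2-fold were 3805, 9168, 1197 and 1177. With median scaling they were 5416, 4895, 2076 and 622, with quantile scaling 4353, 7725, 1449 and 617, with spike-in scaling 6878, 2172, 2726 and 415, and with no scaling 5447, 4836, 2089 and 603. Normexp background correction gave 1500, 1728, 706 and 41. Adding 50 to the signal before log2, chosen after seeing the data, gave 3733, 10077, 930 and 326, and only probes above background on all 8 arrays 3727, 8286, 1101 and 478, where fewer faint genes are tested. The cause of the other shifts was not tested. No filter, the mean of all probes, a trend in eBayes, fitting only the GFP and IgG arrays and leaving out both arrays with conflicting descriptions kept each count within 1.5 times. Leaving out 1 GFP or IgG array gave 3280 to 3961, 7963 to 8999, 1034 to 1389 and 884 to 1522. A lone array left in a group is assumed to vary like the other groups.

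Of the 167 named genes Pabpc1 alone changed sign while called, to 0.12 with spike-in scaling. Calls were lost by 16 others with spike-in scaling, by 48 with normexp and by 3, 4 and 3 with median, quantile and no scaling. Replicate numbers of GFP and IgG did not pair the samples (correlation of deviations 0.003). A fit with the replicate number as a block gave 3755 higher, 9052 lower, 1199 and 1162 at least 2-fold, and 2 named genes lost their call, Pabpc1 and Rnf148. A slide block could not be fitted, since each group lies on 1 slide. Of the genes tested, 484 of the 1177 strongly lower and 1108 of the 1197 strongly higher ones were above background on all 4 arrays, so faint signals limit the lower side most.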
